A study of Homo sapiens with 26 samples.

Results

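Macrophages taken from Biowire heart tissues built with cardiomyocytes were compared with macrophages from tissues built without them, at day 14 of culture. All libraries of those groups were used, which gave 3 CM+FB+MF libraries against 3 FB+MF libraries, 6 of the 26 samples of the series. A Biowire is a strip of hydrogel tissue that compacts between polymer wires on a chip. MF stands for macrophages, made from the human embryonic stem cell line hES2, CM for cardiomyocytes, made from the line ESI17 where the labels give it, and FB is not written out in the labels and is taken to mean fibroblasts. Both groups therefore hold fibroblasts and macrophages, and differ by the cardiomyocytes. All lines were wild type, all tissues were kept in StemPro-34 medium, and all were digested for 40 min in the presence of the transcription inhibitor flavopiridol and a ROCK inhibitor before cells were sorted on the surface proteins CD14 and CD45. Other groups used beside them were 3 Biowire libraries of macrophages cultured alone at day 14, 9 digested control libraries with the same 3 cell mixtures (3 each), labelled with the 40 min digestion and with no day of culture, and 4 day 3 cardiomyocyte libraries from CM+FB tissue.

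RNA was read with a stranded total RNA kit and counted per gene. The CM+FB+MF libraries held 7423390, 8041669 and 6983800 counts, fewer than the FB+MF libraries with 12426918, 10668086 and 11087211 counts. Levels below are in CPM, each gene's count scaled to the total of its library. In a principal component analysis of the 9 Biowire libraries the first component, with 56.6% of the variance, set the 3 CM+FB+MF libraries apart from the other 6. Nothing in the labels says that replicates came from separate cultures, so p-values reflect only how far these samples scatter, and that scatter may be technical. In sorted bulk RNA, fewer cells of a type and less RNA per cell cannot be told apart.

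Macrophages settle in the heart early in life and are kept there by signalling through the CSF1 receptor. In the working heart they take up debris and mitochondria shed by beating muscle cells, handle iron and lipid, and remodel matrix. Resident cardiac macrophages are commonly marked by LYVE1, FOLR2, TIMD4 and STAB1, and recruited monocyte-derived cells by CCR2.

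With cardiomyocytes in the tissue the macrophages held more transcript of the receptors STAB1, LYVE1 and FCGR2B, the glucose transporter SLC2A1, osteopontin (SPP1) and the elastase MMP12. They held less of most oxidant defence and proton pump genes, of the transferrin receptor TFRC and of the osteoclast protease CTSK. Lists of resident macrophage, scavenger receptor and efferocytosis genes held members that rose and members that fell. Of 13952 genes tested, 4949 passed edgeR's quasi-likelihood test at an adjusted p of 0.05, which is 35.5% of them. The calls were 2285 higher (16.4% of genes tested) and 2664 lower (19.1%) with cardiomyocytes. A change of at least 1 on the log2 scale was reached by 1123 higher and 910 lower calls. The median log2 fold change over all genes tested was 0.0. The libraries of the groups did not overlap in CPM for 47.9% of genes tested. Because so many genes moved, the count for any list below is to be read against these shares.

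**Figure D1:**
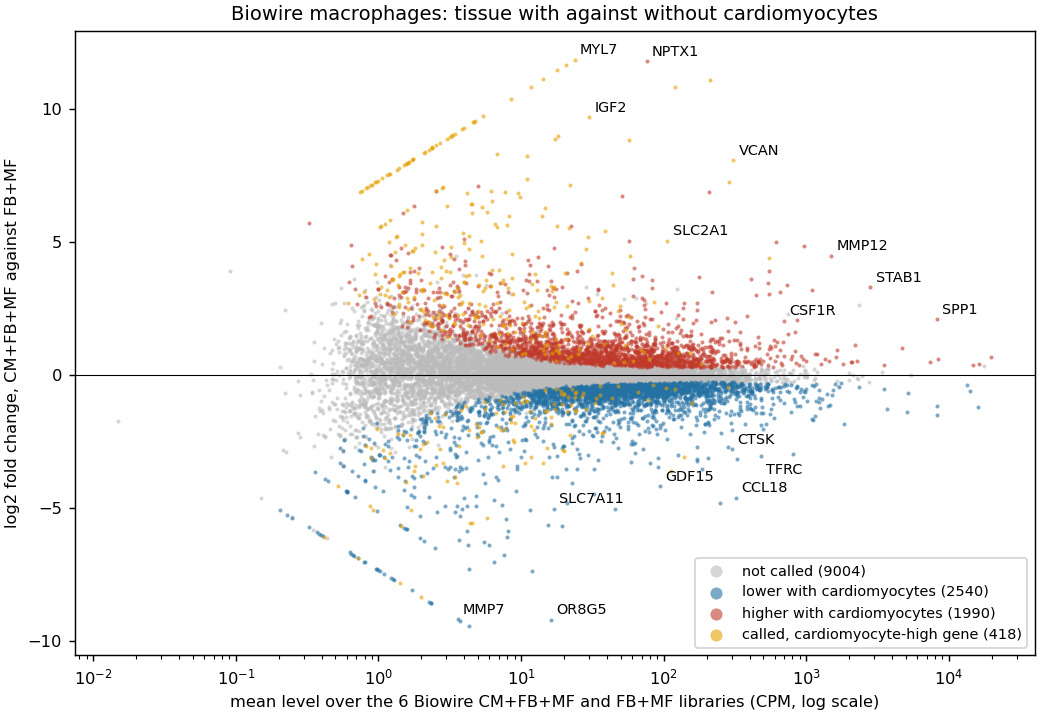
Log2 fold change between Biowire CM+FB+MF and FB+MF macrophages (3 libraries each) against the mean level in CPM on a log axis, 1 point per gene tested. Red and blue points are calls at an adjusted p of 0.05, orange points are called genes at least 8 times higher in cardiomyocytes than in digested macrophages, and STAB1, SPP1 and MMP12 stand out among abundant transcripts that were higher.

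Among genes that were not cardiomyocyte-high (a level in day 3 cardiomyocytes under 8 times that in digested macrophages), the largest rise was that of NPTX1, a neuronal pentraxin. NPTX1 stood at 176, 124 and 155 CPM with cardiomyocytes and at 0.0805, 0 and 0 CPM without, where 1 read was counted in all. The ratio of summed levels was 5153, with a 95% counting interval of 924 to 203581 (edgeR adjusted p 2.04e-09). NPTX1 was also absent from Biowires of macrophages alone, at 0 CPM in the mean. ADAM8, a membrane metalloprotease of leukocytes, rose from 1.13, 4.59 and 4.69 CPM to 404, 392 and 444 CPM (log2 fold change 6.88 ± 0.36 SE, edgeR adjusted p 2.18e-08). Its relative ADAM28 rose from 0.931 ± 0.606 to 102 ± 10.9 CPM (SD, n = 3). Both integrin chains of the α4β7 receptor, which binds VCAM1 and MAdCAM-1, rose: ITGA4 from 3.32 ± 1.62 to 110.3 ± 21.2 CPM and ITGB7 from 0.862 ± 0.301 to 43.6 ± 4.78 CPM (SD, n = 3). RNASE1, a secreted ribonuclease, stood at 1188 ± 62.3 CPM with cardiomyocytes and 36.2 ± 12.6 CPM without, and the IgG Fc binding protein gene FCGBP at 1873 ± 286 and 64.5 ± 44.1 CPM. The rest of the 12 largest rises were IL21R, the interleukin-21 receptor, DUSP8, a phosphatase of JNK and p38, ACSM4, MAMDC2 and GFRA2, a GDNF family receptor, with log2 fold changes from 4.77 to 7.10. IL21R and DUSP8 had 2 and 1 reads in all FB+MF libraries.

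The largest falls were of genes at low levels. MMP7, the protease matrilysin, was counted at 7.56, 6.56 and 7.40 CPM without cardiomyocytes and at 0 in all 3 CM+FB+MF libraries, so it was at least 53.9-fold lower against a floor of 3 counts over the group (edgeR adjusted p 6.84e-05). PANX3, a pannexin channel gene, was at 0 there too and was at least 56.0-fold lower, and the olfactory receptor gene OR8A1 at least 65.2-fold lower. OR8G5, OR8B8, OR8B2 and OR8D2 were among the same 12 falls; these receptors have close paralogs between which reads can be split. GLP2R, the glucagon-like peptide 2 receptor, fell from 30.8, 7.97 and 6.49 CPM to 0, 0.373 and 0 CPM. GSG1, SEPT4, LOC101929450 and LOC101929470 completed the 12, each with 1 to 3 reads over all CM+FB+MF libraries. In contrast to MMP7, which stood at 0.0488 CPM in Biowires of macrophages alone, OR8G5 and GLP2R stood there at 19.6 and 18.8 CPM.

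The transcripts of the sort proteins and of the CSF1 receptor were all higher with cardiomyocytes. CSF1R, which keeps macrophages alive, stood at 1255, 1026 and 1081 CPM against 217, 282 and 300.3 CPM. Every library with cardiomyocytes lay above every library without, and the difference was 2.04 ± 0.24 on the log2 scale (SE, edgeR adjusted p 2.48e-05). CD14, the lipopolysaccharide co-receptor, rose by 1.23 ± 0.16 (SE) on the log2 scale to 969.9 ± 63.6 CPM (SD), and PTPRC, which encodes CD45, by 0.77 ± 0.10 to 402 ± 11.5 CPM. CD14 and CD45 also set which cells were collected. Of 19 macrophage identity genes tested, 8 rose, 3 fell and 8 did not pass, with a median of 0.26. CSF2RA, a GM-CSF receptor chain, AIF1, the actin-binding marker IBA1, and FCER1G, an Fc receptor signalling chain, rose by 1.98, 1.55 and 1.09 on the log2 scale. CD68, a lysosomal glycoprotein, fell from 6939.8, 6022 and 6073 CPM to 4104, 3837 and 4159 CPM (log2 fold change -0.69 ± 0.10 SE, edgeR adjusted p 1.39e-04). CD163, the haemoglobin scavenger receptor, did not pass, with 2490.1, 2246 and 1949.5 CPM against 2311, 2308 and 2527 CPM. The summed level of the identity genes ran from 11913 to 13043 CPM with cardiomyocytes and from 12748 to 14039 CPM without, but with CD68 left out of the sum the order of the groups turned, to means of 8409 CPM with cardiomyocytes and 6962 CPM without.

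Of 18 resident cardiac macrophage genes tested, 9 rose and 5 fell, with a median log2 fold change of 0.70. STAB1, the scavenger receptor stabilin-1, stood at 5971, 4609 and 4702 CPM with cardiomyocytes and 390.3, 520.1 and 615 CPM without. The groups were far apart, with a log2 fold change of 3.29 ± 0.21 (SE, edgeR adjusted p 1.35e-07). LYVE1, a hyaluronan receptor of resident macrophages, rose from 3.22, 5.81 and 11.2 CPM to 64.1, 57.9 and 66.9 CPM (log2 fold change 3.19 ± 0.31 SE, edgeR adjusted p 4.59e-06). F13A1, the coagulation factor XIII A chain of perivascular macrophages, rose from 65.3, 91.1 and 217 CPM to 1430.3, 1285 and 1291 CPM. CD163L1, a scavenger receptor beside CD163 in the genome, rose from 213 ± 53.7 to 1981 ± 149.9 CPM (SD, n = 3). NRP1, a co-receptor for VEGF and semaphorins, COLEC12, a collectin-type scavenger receptor, and FOLR2, the folate receptor, rose by 1.54, 1.42 and 1.03. TIMD4, a phosphatidylserine receptor, stayed low in both groups, at 4.04, 1.87 and 2.00 CPM against 1.29, 1.59 and 3.79 CPM, and did not pass. CCR2 had 1 read in all CM+FB+MF libraries and 6 in all FB+MF libraries, a ratio of 3.94 toward FB+MF with a 95% counting interval of 0.478 to 181.

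CCL18, a chemokine of alternatively activated macrophages, moved against these genes. It stood at 26.8, 27.0 and 24.1 CPM with cardiomyocytes and at 642, 566 and 652 CPM without, a log2 fold change of -4.62 ± 0.11 (SE, edgeR adjusted p 2.48e-11). SLC40A1, the iron exporter ferroportin, MS4A4A, SEPP1 and CD209 were the other resident genes called lower, and without CM+FB+MF replicate 2, FB+MF replicate 2 or FB+MF replicate 3 the number lower was 3.

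**Figure D2:**
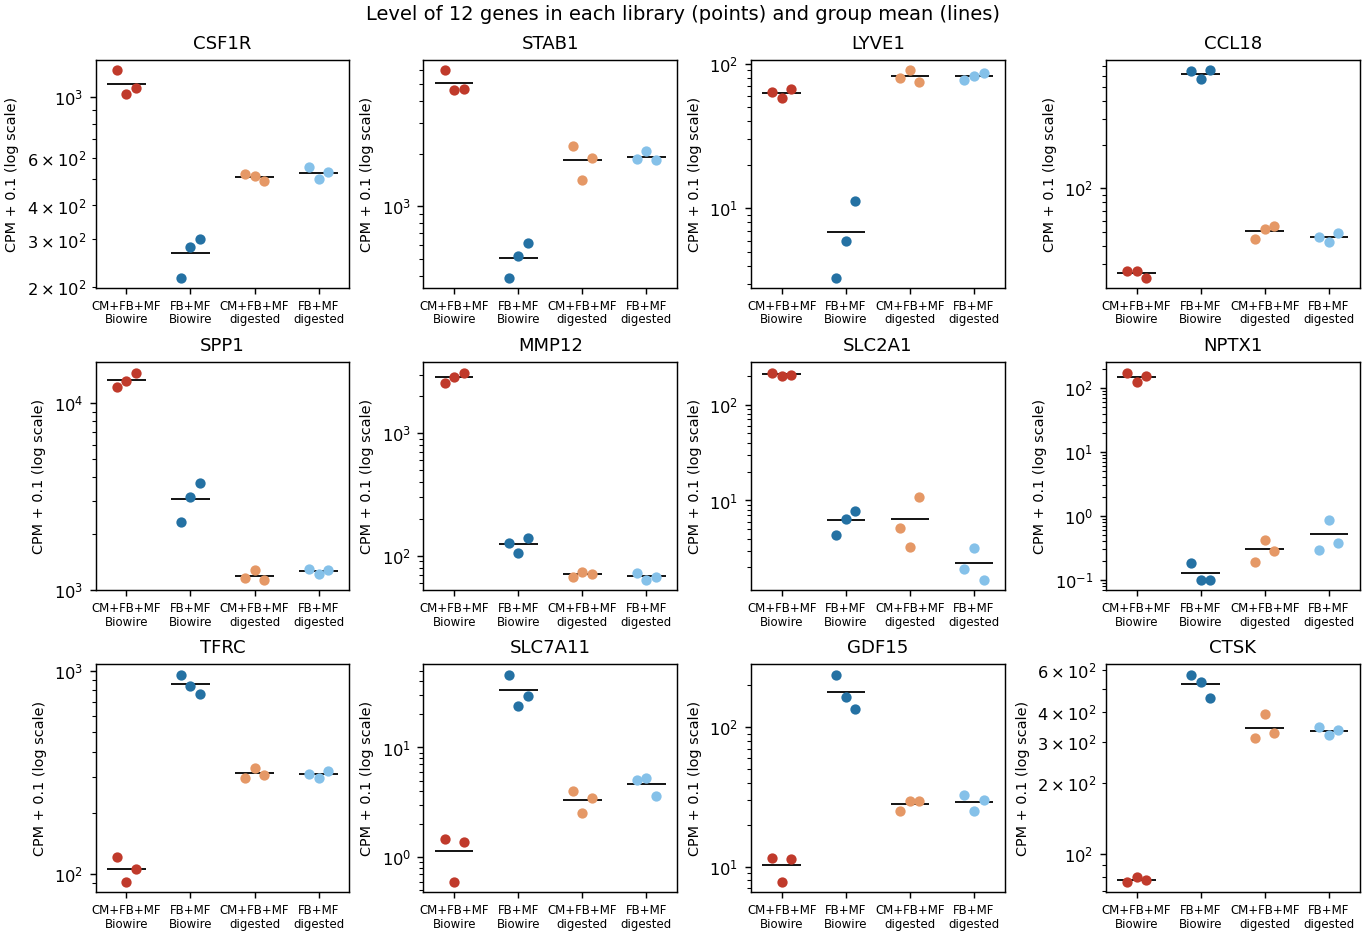
Level of 12 genes in CPM plus 0.1 on a log axis, in each Biowire (dark) and digested control (light) library of CM+FB+MF and FB+MF macrophages, with lines at group means. In the Biowire pair the groups lie apart for each gene shown, CCL18, TFRC, SLC7A11, GDF15 and CTSK being lower with cardiomyocytes, while in the digested pair the same 12 genes do not pass the test or are too low to be tested.

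Receptors for antibody and complement were mostly higher. Of 8 Fc gamma receptor genes tested, 6 rose and none fell, with a median of 1.58. FCGR2B, the inhibitory receptor, rose from 78.6, 98.9 and 108 CPM to 721, 767 and 873 CPM (log2 fold change 3.01 ± 0.13 SE, edgeR adjusted p 3.94e-09). FCGR2C rose by 3.47 ± 0.23, but it is nearly identical to FCGR2B and the split of reads between them is uncertain, as is that between FCGR3A and FCGR3B. FCGR3A, which encodes CD16, rose from 324 ± 28.1 to 1408 ± 92.6 CPM (SD, n = 3). FCGR1A, the high-affinity receptor, stood at 123 ± 21.9 and 108 ± 3.28 CPM and did not pass. Of 12 MHC class II genes, which present peptides to helper T cells, 6 rose and none fell, with a median of 0.42. CIITA, their master activator, rose by 0.85 ± 0.23 (edgeR adjusted p 0.0114), a call that was lost without CM+FB+MF replicate 1 (edgeR adjusted p 0.0540). HLA-DPA1 rose by 0.80 ± 0.13, while HLA-DRA (326 ± 17.5 against 265 ± 6.29 CPM) and the invariant chain CD74 (2046 ± 199 against 1912 ± 118 CPM) did not pass, HLA-DRA being called in a fit of the compared groups only (edgeR adjusted p 0.0369). Among 16 complement genes 6 rose and 3 fell: CD93, a receptor first described for C1q, rose from 9.98, 9.65 and 9.20 CPM to 144, 115 and 136 CPM, and C3, the central component, fell from 127 ± 25.4 to 29.8 ± 5.68 CPM (SD, n = 3).

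Genes for clearing dead cells split. Of 24 efferocytosis genes tested, 5 rose and 6 fell, with a median of 0.08. MERTK, a receptor tyrosine kinase that binds bridged phosphatidylserine, rose from 111, 125 and 131 CPM to 288, 362 and 303 CPM (log2 fold change 1.34 ± 0.11 SE, edgeR adjusted p 1.20e-06), and its relative AXL rose by 1.18 ± 0.19. CD36, a receptor for oxidised lipid and apoptotic cells, fell by 0.98 to 806 ± 91.2 CPM. Of 16 scavenger and lectin receptor genes, COLEC12 and MRC2 rose and MARCO, CD36 and SCARB1 fell, the rises numbering 4 with DESeq2 and without a filter on low counts, and 1 with cardiomyocyte-high genes left out. MARCO, a class A scavenger receptor, was at 40.1, 29.8 and 31.1 CPM with cardiomyocytes and at 425, 250.2 and 251 CPM without.

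Lipid genes also went both ways. Of 18 LXR target and cholesterol efflux genes, 6 rose and 9 fell. ABCA1, the main cholesterol exporter, rose from 328, 433 and 431 CPM to 1084, 1407 and 1279 CPM (log2 fold change 1.62 ± 0.14 SE, edgeR adjusted p 1.91e-06), and ABCG1, which loads cholesterol onto lipoprotein, rose by 0.90. APOE, the lipoprotein acceptor of the same pathway, fell from 7258 ± 689.6 to 2878 ± 216 CPM (SD, n = 3), and SOAT1, which esterifies cholesterol for storage, from 303 ± 29.7 to 86.7 ± 3.40 CPM. Of 15 lipid-associated macrophage genes, SPP1 and CTSB rose and 9 fell, with a median of -0.70, the rises numbering 1 without FB+MF replicate 2. The 9 included GPNMB, a lysosomal glycoprotein, which fell from 11357 ± 529 to 5244 ± 118 CPM, and FABP4, a fatty acid carrier, which fell from 45.1 ± 7.63 to 5.85 ± 3.07 CPM. SPP1, which encodes osteopontin, moved the other way, from 2298, 3133 and 3753 CPM to 12257, 13229 and 14642 CPM (log2 fold change 2.09 ± 0.17 SE, edgeR adjusted p 7.16e-07). TREM2, the lipid receptor used to name this state, stood at 98.6 ± 18.6 and 97.2 ± 22.4 CPM and did not pass. No member of 23 cholesterol synthesis genes rose and 6 fell.

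Of 20 matrix protease and inhibitor genes, 4 rose and 6 fell. MMP12, the macrophage elastase, rose from 127, 105 and 139 CPM to 2558, 2884 and 3135 CPM, with a log2 fold change of 4.49 ± 0.26 (SE, edgeR adjusted p 5.81e-08). The gelatinase MMP2 fell from 125 ± 23.3 to 18.5 ± 6.24 CPM (SD, n = 3). CTSK, a collagenase of osteoclasts, fell from 576, 538 and 457 CPM to 76.4, 79.8 and 78.0 CPM (log2 fold change -2.79 ± 0.12 SE, edgeR adjusted p 3.34e-09). MMP9 fell by 1.06, but its libraries overlapped, and the call was lost with DESeq2 and without any 1 of CM+FB+MF replicates 2 and 3 and FB+MF replicates 2 and 3. TIMP1, an inhibitor of these proteases, rose by 0.46 (edgeR adjusted p 0.0415) and was lost without CM+FB+MF replicate 1, 2 or 3 or FB+MF replicate 2 or 3. Of 18 integrin and adhesion genes, 7 rose and 3 fell, ITGA4, ITGB7, ITGA9 and ITGAM among the rises.

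**Figure D3:**
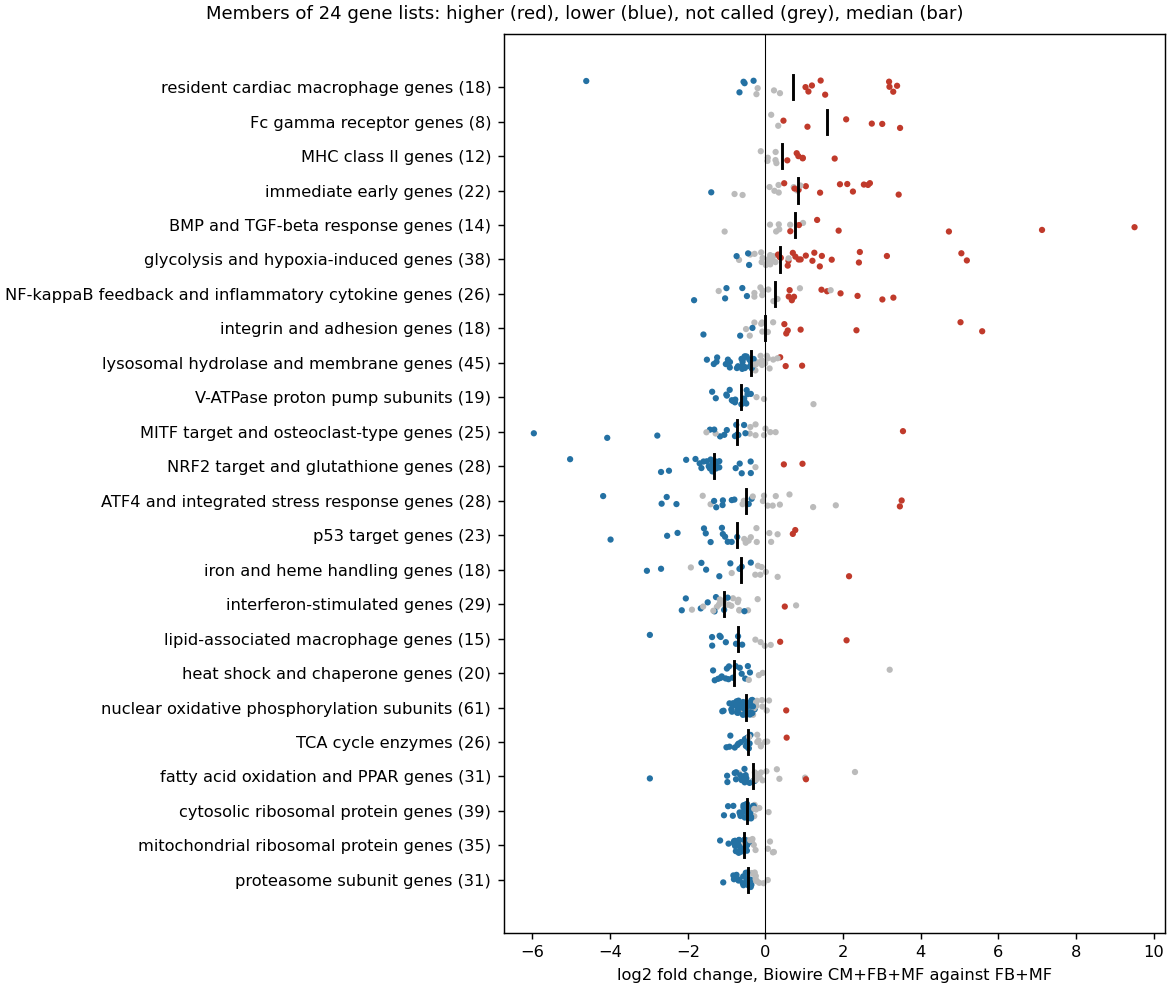
Log2 fold change between Biowire CM+FB+MF and FB+MF macrophages for each tested member of 24 gene lists (number tested in brackets), with calls higher in red, calls lower in blue, genes not called in grey, and the median as a bar. The medians of Fc gamma receptor, immediate early and hypoxia-induced genes lie to the right of 0, and those of NRF2 target, V-ATPase, oxidative phosphorylation and ribosomal protein genes to the left.

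Glycolysis and hypoxia-induced genes, many of them targets of the oxygen-sensitive factor HIF-1, rose in part. Of 38 tested, 20 rose, 3 fell and 15 did not pass, with a median of 0.38. SLC2A1, the glucose transporter GLUT1, stood at 216, 198 and 204 CPM with cardiomyocytes and at 4.26, 6.37 and 7.67 CPM without (log2 fold change 5.05 ± 0.22 SE, edgeR adjusted p 3.38e-09). EGLN3, a prolyl hydroxylase that HIF-1 induces, rose from 1.37, 2.25 and 0.992 CPM to 56.0, 51.6 and 65.4 CPM. NDRG1, a stress-induced gene, HK2, a hexokinase, VEGFA, the angiogenic growth factor, and P4HA1, a collagen prolyl hydroxylase, rose by 2.43, 3.13, 2.41 and 1.40 on the log2 scale. LDHA, lactate dehydrogenase, rose from 159.9, 163 and 178 CPM to 381, 409 and 442 CPM, and PGK1 by 0.91. The 3 genes that fell were PFKM, BNIP3, a mitophagy receptor that hypoxia induces, and PFKFB3, by 0.74, 0.42 and 0.45; without CM+FB+MF replicate 1, and without a filter on low counts, the number was 5. ENO1 and PFKFB4 did not pass, at 950.1 ± 27.7 against 973 ± 39.4 CPM and 22.8 ± 4.92 against 19.2 ± 3.37 CPM (SD, n = 3). SLC2A1, EGLN3 and VEGFA were among 5 of the 20 that are cardiomyocyte-high. The cardiomyocyte level scaled by the share of cardiomyocyte marker transcript in these libraries was 1.02 CPM for SLC2A1, 0.282 CPM for EGLN3 and 3.53 CPM for VEGFA.

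The letters ACGTG, a form of the core of the hypoxia response element, were searched on both strands in the 250 bases before the start of each gene (RefSeq, GRCh38.p14). Other forms of that core were not searched. They stood in the window of 12 of 17 list members that rose and have a sequence (70.6%), of 22 of 34 tested members with one (64.7%), of 27.3% of all higher calls and of 28.5% of all genes tested. All 3 members that fell held them as well. The windows of P4HA1 and LDHA are shown as examples of called members with a match and a small p. Not every called member was considered for display, so members with a smaller p, such as NDRG1, may hold a match too. Capitals mark every match, which reads CACGT on the other strand. P4HA1 is taken from chr10:73096867-73097116 on the minus strand, with 1 match starting at position -86 from the gene start, and LDHA from chr11:18394313-18394562 on the plus strand, with 5 overlapping matches at 3 places.
P4HA1: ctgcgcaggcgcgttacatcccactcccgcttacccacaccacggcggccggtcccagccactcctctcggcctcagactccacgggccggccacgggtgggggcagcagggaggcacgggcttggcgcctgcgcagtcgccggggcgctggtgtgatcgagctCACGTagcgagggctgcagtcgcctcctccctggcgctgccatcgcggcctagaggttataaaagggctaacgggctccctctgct
LDHA: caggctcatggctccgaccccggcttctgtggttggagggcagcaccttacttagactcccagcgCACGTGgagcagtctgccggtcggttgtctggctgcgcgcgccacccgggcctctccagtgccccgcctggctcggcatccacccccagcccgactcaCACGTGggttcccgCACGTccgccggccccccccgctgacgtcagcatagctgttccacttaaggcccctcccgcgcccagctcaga
A match is a description of the letters and not a shown binding site.

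Lysosomal and proton pump genes were lower. Of 45 lysosomal hydrolase and membrane genes, 28 fell and 3 rose, with a median of -0.37, and of 19 V-ATPase subunit genes, which acidify lysosomes, 16 fell and none rose, with a median of -0.62. PSAP, the precursor of the saposins, fell from 12063, 12658 and 11683 CPM to 4637, 4175 and 4330.5 CPM (log2 fold change -1.51 ± 0.12 SE, edgeR adjusted p 5.02e-07). GM2A, the GM2 ganglioside activator, fell by 1.24 and the tetraspanin CD63 by 1.02. The catalytic pump subunit ATP6V1A fell from 299, 273 and 266 CPM to 105, 111 and 117 CPM (log2 fold change -1.37 ± 0.10 SE, edgeR adjusted p 4.02e-07). ATP6V0D2, the subunit most tied to osteoclasts, fell by 0.92. Genes that rose included IDUA and CTSB, cathepsin B going from 12530.3 ± 376 to 16733 ± 582 CPM (SD, n = 3). LAMP1, a lysosomal membrane protein gene, stood at 683, 699 and 671 CPM against 761, 689 and 674 CPM and did not pass. Of 25 MITF target and osteoclast-type genes, 14 fell and 1 rose, with a median of -0.73. DCSTAMP, needed for macrophage fusion, fell from 42.7 ± 15.4 to 2.63 ± 1.10 CPM (SD, n = 3), ACP5, the tartrate-resistant acid phosphatase, had a log2 fold change of -1.17 and MITF itself of -0.52. The gene that rose was TNFRSF11A, which encodes RANK, the receptor that starts osteoclast differentiation, from 2.51 ± 0.893 to 29.8 ± 0.905 CPM; with DESeq2, with RLE size factors, after thinning and without cardiomyocyte-high genes, 2 members rose.

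The E-box CACGTG, which reads the same on both strands, is bound by the MiT family (MITF, TFEB and TFE3) and lies within lysosomal gene promoters; it contains ACGTG. It stood in 7 of the 28 lysosomal and V-ATPase windows of genes that fell (25.0%), in 12 of 42 tested list members with a window (28.6%), in 13.4% of all lower calls and in 11.1% of all genes tested. CD63, at chr12:55729010-55729259 on the minus strand, and CTSD, at chr11:1763928-1764177 on the minus strand, are shown as examples of called members with a match. Their E-boxes start at positions -180 and -47 from the gene start. Not every called member was considered here either, so members with a smaller p than CTSD, such as ATP6V1C1, may hold a match too. CTSD, cathepsin D, fell from 18086, 16222 and 15996 CPM to 11608, 10894 and 11636 CPM.
CD63: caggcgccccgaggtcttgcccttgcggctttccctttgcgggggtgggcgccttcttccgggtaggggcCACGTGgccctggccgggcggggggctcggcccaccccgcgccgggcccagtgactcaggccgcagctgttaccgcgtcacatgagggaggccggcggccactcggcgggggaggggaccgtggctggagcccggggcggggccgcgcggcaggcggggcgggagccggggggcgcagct
CTSD: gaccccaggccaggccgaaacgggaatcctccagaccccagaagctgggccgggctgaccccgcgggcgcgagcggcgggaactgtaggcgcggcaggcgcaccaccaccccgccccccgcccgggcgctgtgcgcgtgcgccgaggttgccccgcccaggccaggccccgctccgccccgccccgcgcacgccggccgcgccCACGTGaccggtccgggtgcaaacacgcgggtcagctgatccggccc

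Oxidant defence genes fell more than any list named so far by median. Of 28 NRF2 target and glutathione genes, 25 fell and 2 rose, with a median of -1.33. SLC7A11, the cystine importer that feeds glutathione synthesis, fell from 46.1, 23.7 and 29.2 CPM to 1.35, 0.497 and 1.29 CPM (log2 fold change -5.03 ± 0.49 SE, edgeR adjusted p 4.32e-06). HMOX1, haem oxygenase 1, fell from 1910.4, 1445 and 1605 CPM to 539, 516 and 571 CPM, NQO1, a quinone reductase, by 2.49, and GPX4, which guards membranes against lipid peroxides, by 1.37. The genes that rose were GPX1, a glutathione peroxidase, by 0.95, and the transporter ABCC3. Of 18 iron and haem genes, 9 fell and 1 rose. TFRC, the transferrin receptor, fell from 957, 841 and 771 CPM to 121, 91.4 and 106 CPM, a log2 fold change of -3.05 ± 0.14 (SE, edgeR adjusted p 5.37e-09). SLC48A1, a haem transporter of the phagolysosome, fell by 2.69 and FTH1, ferritin heavy chain, by 1.19. SLC11A1, which moves iron and manganese out of phagosomes, rose from 92.9, 106 and 99.0 CPM to 464, 458 and 439 CPM.

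Of 28 ATF4 and integrated stress response genes, 12 fell and 2 rose. GDF15, a stress cytokine, fell from 238, 163 and 134 CPM to 11.5, 7.71 and 11.3 CPM (log2 fold change -4.18 ± 0.25 SE, edgeR adjusted p 6.54e-08), and DDIT3, which encodes CHOP, and TRIB3 had log2 fold changes of -2.54 and -2.67. The amino acid synthesis targets ASNS and PSAT1 were under 2 CPM in each library of these groups and did not pass. Of 23 p53 target genes 12 fell and 2 rose, with a median of -0.73, the rises numbering 1 without CM+FB+MF replicate 1, FB+MF replicate 1 or FB+MF replicate 2. MDM2, the p53 ubiquitin ligase, fell from 322, 394 and 361 CPM to 108, 128 and 133 CPM and CDKN1A, the cell cycle inhibitor p21, by 0.73.

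Mitochondrial and protein-making genes fell more often than they rose. Of 61 nuclear oxidative phosphorylation genes, 46 fell and 1 rose, with a median of -0.50, the rise being lost without CM+FB+MF replicate 1 or 3 or FB+MF replicate 1 or 2. SDHB, a subunit of complex II, fell from 121, 107 and 106 CPM to 62.1, 57.9 and 60.0 CPM. Of 26 TCA cycle enzyme genes 17 fell and 1 rose, and of 31 fatty acid oxidation and PPAR genes 16 fell and 1 rose, or 2 rose without CM+FB+MF replicate 1 or 3 or FB+MF replicate 3. Of 39 cytosolic ribosomal protein genes 33 fell and none rose, with a median of -0.48, RPLP0 falling from 933 ± 59.8 to 458 ± 71.1 CPM (SD, n = 3). Of 35 mitochondrial ribosomal protein genes 23 fell, and 14 did so without FB+MF replicate 1, and of 31 proteasome subunit genes 21 fell, with medians of -0.54 and -0.44. Of 20 heat shock and chaperone genes 16 fell and none rose, with a median of -0.80, HSPB1 from 351 ± 43.5 to 141 ± 1.19 CPM and HSP90AA1 from 1945 ± 129 to 895 ± 42.7 CPM; 1 member rose without FB+MF replicate 1, without a filter, after thinning and in a fit of the compared groups only. These medians are shifts relative to the whole transcriptome as scaled and carry no total RNA per cell.

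Inflammatory genes went both ways. Of 26 NF-κB feedback and cytokine genes, 10 rose and 5 fell, with a median of 0.26. The number that fell was 3 without CM+FB+MF replicate 2 or 3 or FB+MF replicate 1 or 2. IL1B, interleukin-1β, rose from 3.46, 2.44 and 4.15 CPM to 26.0, 23.1 and 34.7 CPM (log2 fold change 3.01 ± 0.38 SE, edgeR adjusted p 4.54e-05), and NLRP3, the inflammasome sensor that matures it, from 3.14, 3.09 and 4.33 CPM to 38.9, 31.6 and 36.1 CPM. TNF rose by 2.37. IL6 was at 1.62, 0.373 and 1.00 CPM against 0.805, 0.937 and 1.35 CPM and did not pass. Of 22 chemokine and receptor genes, 5 rose and 6 fell, the falls numbering 3 without CM+FB+MF replicate 1, CM+FB+MF replicate 2 or FB+MF replicate 1. The neutrophil attractant CXCL3 rose by 1.65, CCRL2, a chemerin-binding receptor, fell by 2.56, and CXCL8 fell by 0.80, a call lost with DESeq2 and without any 1 of CM+FB+MF replicates 1 to 3 or FB+MF replicate 1. Of 15 leukotriene and prostanoid genes, 5 rose and 4 fell. ALOX5AP, which presents arachidonic acid to 5-lipoxygenase, rose from 1.53, 2.06 and 1.35 CPM to 22.9, 31.8 and 33.5 CPM, and ALOX5, that enzyme, from 17.6, 33.3 and 40.5 CPM to 174, 154 and 153 CPM.

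Of 22 immediate early genes, 12 rose and 1 fell, with a median of 0.83, all cells having been digested with a transcription inhibitor. FOS, an AP-1 subunit, stood at 219, 111 and 59.9 CPM against 31.5, 27.6 and 29.7 CPM (log2 fold change 2.11 ± 0.34 SE, edgeR adjusted p 3.08e-04), and EGR1 at 85.9, 42.5 and 53.6 CPM against 6.44, 9.75 and 12.4 CPM. The CM+FB+MF libraries were spread widely, replicate 1 being highest for both. EGR2, a zinc finger factor, was the gene that fell, by 1.40, and without a filter 2 fell. In the digested controls the same transcripts were at similar levels in both mixtures, FOS at 158 and 156 CPM and EGR1 at 92.8 and 95.5 CPM in the mean. Of 9 ERK feedback genes 5 rose, among them the phosphatase DUSP6 by 1.86 and PHLDA1 by 2.44. In the same list 1 gene fell, or 2 with DESeq2, without a filter, in a fit of the compared groups only and without CM+FB+MF replicate 2 or FB+MF replicate 2.

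Of 14 BMP and TGF-β response genes, 7 rose and none fell, with a median of 0.75; 1 fell without FB+MF replicate 3, without a filter and in a fit of the compared groups only. ID3, an inhibitor of helix-loop-helix factors that BMP induces, rose from 0.322, 0.0937 and 0.451 CPM to 45.1, 49.0 and 36.5 CPM (log2 fold change 7.12 ± 0.37 SE, edgeR adjusted p 2.14e-08). ID1 was at 12.1, 3.85 and 11.9 CPM with cardiomyocytes and at 0 without, at least 104-fold higher. SMAD7, a feedback inhibitor, and SKIL rose by 1.88 and 1.33. ID3 and ID1 are cardiomyocyte-high, and their scaled cardiomyocyte levels were 0.0894 and 0.0420 CPM. IGF2, insulin-like growth factor 2, is cardiomyocyte-high too and stood at 60.3, 59.6 and 59.9 CPM against 0, 0 and 0.180 CPM, with a scaled cardiomyocyte level of 1.83 CPM. VCAN, the proteoglycan versican, rose from 2.66, 1.97 and 1.98 CPM to 557, 629 and 655 CPM, with a scaled cardiomyocyte level of 47.7 CPM. IGF1 was among 12 of 19 growth factor genes that did not pass.

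Interferon-stimulated genes had the lowest median after the NRF2 list in the plot of gene lists, -1.06. Of 29 tested, 9 fell and 1 rose. ISG15, an interferon-induced ubiquitin-like protein, stood at 77.2, 17.7 and 26.8 CPM against 353, 70.5 and 66.5 CPM, so the groups overlapped and replicate 1 was the highest of both. IFI6 stood at 104, 54.3 and 57.7 CPM against 624, 162 and 150.1 CPM (log2 fold change -2.16 ± 0.53 SE, edgeR adjusted p 0.00613). The number lower was 3 without FB+MF replicate 1, CM+FB+MF replicate 2 or CM+FB+MF replicate 3, 14 without FB+MF replicate 2, 5 with DESeq2 and 19 without a filter on low counts. The call of the gene that rose was lost without CM+FB+MF replicate 1 or 2 or FB+MF replicate 2 or 3. ISG15 was not called without FB+MF replicate 1 (edgeR adjusted p 0.386), without CM+FB+MF replicate 2 or 3, or with DESeq2.

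The lists that remain are also to be read against the 16.4% of all genes that rose and the 19.1% that fell. Of 15 Toll-like receptor genes 5 rose and 5 fell, the falls numbering 2 or 3 when any 1 library of the groups was left out. Of 21 inhibitory myeloid receptor genes 7 rose and 2 fell, the rises numbering 4 without FB+MF replicate 2. CD300A, an inhibitory receptor, rose by 2.07, and SIGLEC15, a sialic acid receptor of osteoclasts, fell from 73.2, 62.2 and 50.1 CPM to 5.79, 5.60 and 9.59 CPM. Of 12 MHC class I and peptide loading genes 2 rose and 3 fell, and 1 rose when any 1 library other than FB+MF replicate 1 was left out. Of 10 coagulation and plasminogen genes 3 rose and 1 fell; 2 fell with DESeq2, in a fit of the compared groups only and without CM+FB+MF replicate 1 or FB+MF replicate 3, and 3 fell without a filter. Of 10 S100 and alarmin genes 5 rose and 2 fell, and 3 rose when cardiomyocyte-high genes were left out. None of 3 metallothionein genes passed, and 1 rose in a fit of the compared groups only.

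Proliferation genes had calls that turned on the processing. Of 16 replication genes 3 fell and none rose; 1 fell without CM+FB+MF replicate 2 or FB+MF replicate 1, and 1 rose after thinning and without FB+MF replicate 1 or 3. Of 20 mitotic genes PRC1 and CCNA2 rose. The call of CCNA2 was lost without a filter, without CM+FB+MF replicate 1 or 2 and without FB+MF replicate 1, 2 or 3. The number of mitotic genes that rose was 5 with DESeq2, and 1 after thinning and without CM+FB+MF replicate 1, CM+FB+MF replicate 2 or FB+MF replicate 3. Without CM+FB+MF replicate 3, 1 mitotic gene fell. MKI67, a proliferation marker, had a log2 fold change of 2.08 and did not pass (edgeR adjusted p 0.0655). It was called higher with DESeq2 (adjusted p 0.0176), and by edgeR without a filter (adjusted p 0.0467), in a fit of the compared groups only (adjusted p 0.0214) and without FB+MF replicate 2 (adjusted p 0.0340).

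For several of these genes the tissue without cardiomyocytes stood between the tissue of macrophages alone and the full tissue. The comparison of FB+MF with macrophages alone shares the FB+MF libraries with the comparison above, so only levels are given. STAB1 had a mean of 37.5 CPM in Biowires of macrophages alone, 509 CPM with fibroblasts and 5094 CPM with fibroblasts and cardiomyocytes. SPP1 had means of 434, 3062 and 13376 CPM in the same order, MMP12 of 21.7, 124 and 2859 CPM, and FCGR3A of 54.5, 324 and 1408 CPM. The order ran downward for CTSK, at 2299, 524 and 78.1 CPM, and CCL18, at 851, 620.0 and 25.9 CPM. The means of GDF15, at 203, 178 and 10.2 CPM, and SLC7A11, at 38.4, 33.0 and 1.04 CPM, had that order too. For both, however, FB+MF replicate 1 lay above the mean of macrophages alone, so a step between those tissues is not shown. FCGR2B did not follow either order, at 165, 95.2 and 787 CPM.

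Cardiomyocyte transcript was present in the sorted libraries from tissue with cardiomyocytes. Summed over 29 cardiomyocyte markers in the table, it ran from 1772 to 3633 CPM in CM+FB+MF and from 431 to 452 CPM in FB+MF, where 11 markers were at 0 in all libraries. Of 28 tested, 25 rose and 1 fell, with a median of 7.69. MYL7, the atrial myosin light chain, stood at 26.1, 50.5 and 65.9 CPM against 0 in all FB+MF libraries, at least 538-fold higher, and cardiac actin ACTC1 at 41.1 ± 17.6 CPM (SD, n = 3) against 0, at least 471-fold higher. MYH6, cardiac myosin, had 251, 566 and 446 CPM against 0.483, 0 and 0 CPM. RYR2, HSPB7 and MYL3 were the rest of the 6 largest rises among cardiomyocyte-high genes. The day 3 cardiomyocyte libraries held 157562 to 176328 CPM of the same markers. Cardiomyocyte-high genes made up 7.22% of genes tested, 12.9% of higher calls and 4.62% of lower calls. For 2018 of the 2285 higher calls (88.3%), the cardiomyocyte level scaled to these libraries was under 10% of the rise. That scaling rests on day 3 cells in a separate table, and whether macrophages held or took up this RNA was not tested.

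Markers of other cells moved less. Summed fibroblast markers ran from 412 to 497 CPM with cardiomyocytes and from 673 to 771 CPM without, and of 14 tested 2 rose and 4 fell, SPARC falling from 317 ± 22.3 to 94.0 ± 22.4 CPM. SPARC stood at 367 CPM in Biowires of macrophages alone. The number of fibroblast markers that rose was 0 without CM+FB+MF replicate 2 or 3 or FB+MF replicate 2 or 3, and 1 without CM+FB+MF replicate 1 or FB+MF replicate 1 and with DESeq2. With cardiomyocyte-high genes left out, 1 rose and 2 fell. Summed smooth muscle genes ran from 89.3 to 94.6 and from 39.2 to 57.6 CPM, and 4 of 9 tested rose, all cardiomyocyte-high, and 2 fell. The falls numbered 0 with RLE size factors, with cardiomyocyte-high genes left out and without CM+FB+MF replicate 2 or 3 or FB+MF replicate 1, and 1 after thinning and without FB+MF replicate 2 or 3. Summed endothelial markers ran from 459 to 479.5 and from 497 to 581 CPM. Of 4 tested 2 fell, or 1 without CM+FB+MF replicate 3 or FB+MF replicate 1. PECAM1 made up most of this sum, and without it the sums ran from 103 to 121 and from 85.9 to 106 CPM. Biowires of macrophages alone held 562 to 658 CPM of the full endothelial sum. Lymphocyte and other blood cell markers ran from 3.11 to 7.30 and from 7.31 to 14.3 CPM. Without NKG7, their most abundant gene, they overlapped, at 0.373 to 3.23 and 1.31 to 3.97 CPM. Pluripotency markers ran from 26.8 to 40.0 and from 39.7 to 49.5 CPM, most of it L1TD1. Without L1TD1 they overlapped too, at 1.43 to 4.71 and 2.35 to 2.98 CPM. The part of these cells in the results above was not tested.

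**Figure D4:**
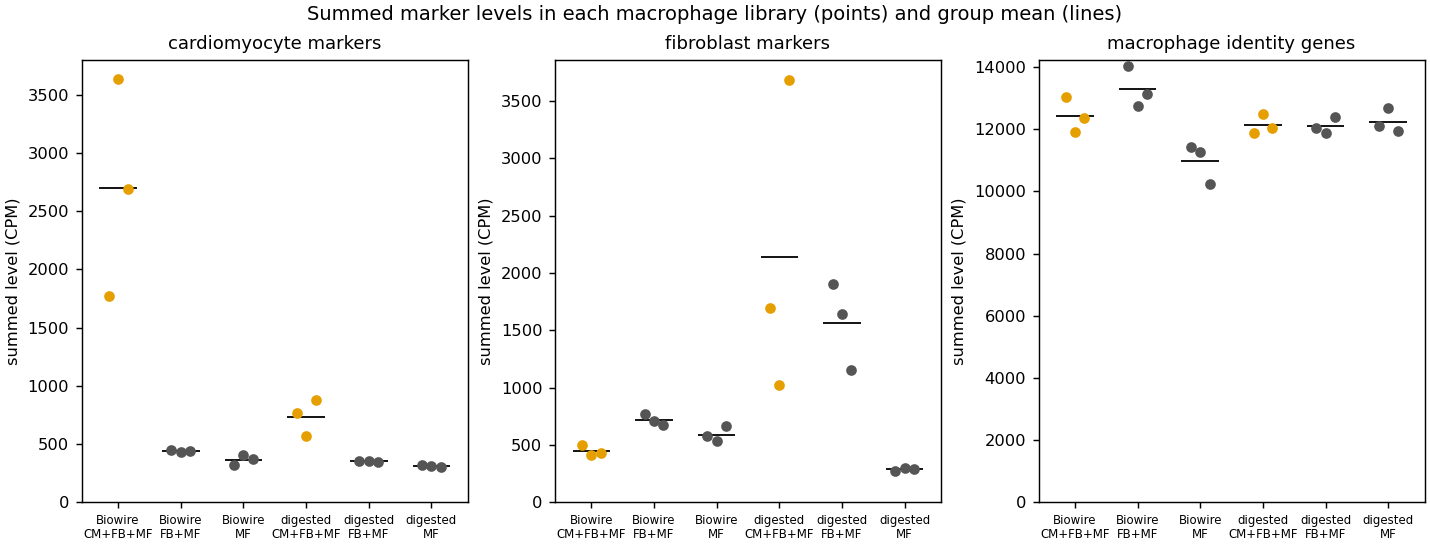
Summed CPM of cardiomyocyte markers, fibroblast markers and macrophage identity genes in each of 18 macrophage libraries (points) with group means (lines); orange points are libraries from mixtures with cardiomyocytes. Cardiomyocyte markers span 1772 to 3633 CPM with cardiomyocytes in Biowires and 565 to 879.5 CPM in the digested mixture, while macrophage identity genes span 11913 to 13043 CPM in the former and 11868 to 12488 CPM in the latter.

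In the digested controls the same contrast gave almost no calls. Of 12960 genes tested, 31 passed (0.239%), all higher with cardiomyocytes and all cardiomyocyte-high, and none was lower. At an unadjusted p of 0.05, 321 genes were below the threshold, 120 of them lower, and DESeq2 called 40 higher and 0 lower. The 31 included ACTC1, MYH6, MYL7, TNNT2 and TTN, and 28 of them were also higher in Biowires. Summed cardiomyocyte markers ran from 565 to 879.5 CPM in digested CM+FB+MF and from 346 to 356 CPM in digested FB+MF. STAB1 stood at 1838 and 1922 CPM in the digested groups, CCL18 at 50.5 and 45.9 CPM, MMP12 at 70.5 and 67.8 CPM, and LYVE1 at 81.7 and 81.9 CPM. Of the genes in the lists, only cardiomyocyte markers (18 of 23 tested) and the smooth muscle list (1 of 8) held a digested call.

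The difference itself was tested as an interaction over the 18 macrophage libraries. Of 14381 genes tested, 4081 passed (28.4%), 1905 more positive in Biowires (13.2%) and 2176 more negative (15.1%). The interaction holds the Biowire contrast of the same libraries, so the sign a gene had in Biowires is no independent support for the sign of its interaction. All 3 sort and CSF1R genes, 25 of 28 NRF2 targets, 16 of 19 V-ATPase genes, 36 of 61 oxidative phosphorylation genes and 5 of 8 Fc gamma receptor genes passed with the sign most of their list showed in Biowires. For cardiomyocyte markers 6 of 29 were more positive. STAB1 differed between settings by 3.36 ± 0.26 on the log2 scale (SE, edgeR adjusted p 1.31e-08), CCL18 by -4.75 ± 0.14 (edgeR adjusted p 1.29e-14) and SPP1 by 2.17 ± 0.19 (edgeR adjusted p 7.38e-08). TNNT2, by contrast, differed by 0.93 ± 1.56 and did not pass (edgeR adjusted p 0.697).

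**Figure D5:**
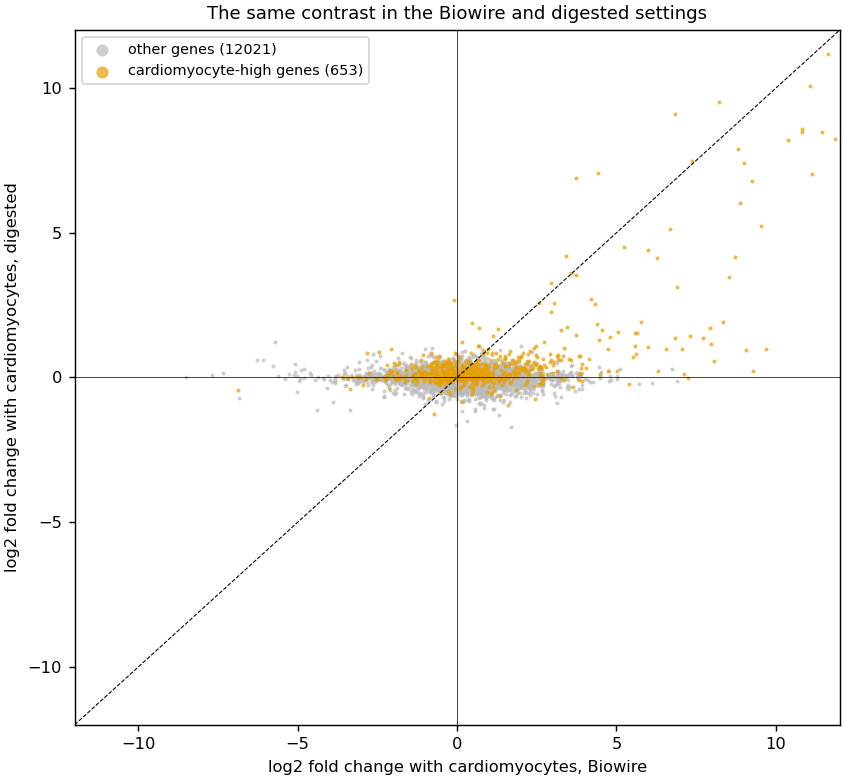
Log2 fold change of CM+FB+MF against FB+MF macrophages in digested controls against that in Biowires, 1 point per gene tested in both, orange for cardiomyocyte-high genes; the dashed line marks equal change. Most genes with large Biowire changes lie near 0 in the digested setting, and those that lie high in both are cardiomyocyte-high.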

How the data were processed

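The authors deposited whole-number read counts per gene as tables of raw counts. The submitters' processing notes name genome build hg19 and, as tools, HTSeq 0.11.0, R 4.3.2, STAR 2.7.9a and DESeq2. How strand was handled in counting is not stated there, so overlapping and antisense genes are uncertain. Column names of the digested table repeat those of the Biowire table, so its columns were assigned to groups by workbook and are numbered as the columns are. The sorted cells, kit and culture are as the labels' protocols give them.

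From those deposited counts, 19206 genes in the Biowire table were normalised with TMM, filtered with filterByExpr and tested with edgeR 4.0.16 (R 4.3.3) in a quasi-likelihood fit of all 9 Biowire libraries, with Benjamini-Hochberg adjustment over 13952 genes. SE is the log2 fold change divided by the square root of F. The digested table was fitted the same way, and the interaction on 17919 genes in both tables. DESeq2 1.42.0 was an alternative. A cardiomyocyte-high gene had at least 8 times the level (CPM + 0.1) in CM+FB cardiomyocytes that it had in digested macrophages alone; 28 gene names in the cardiomyocyte table read as dates and were not matched. Folds with 3 or fewer counts in a group are ratios with 95% exact counting intervals, and bounds use a floor of 3 counts over the group; both cover counting error only. Total counts per library ran from 6983800 upward, and promoter sequences came from RefSeq (GRCh38.p14).

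Members and gene lists (50 lists, 1015 of 1050 names in the table) were chosen with earlier results of these data known, so list counts are descriptions. Named genes were the 12 largest rises and 12 largest falls among called genes with at least 5 CPM whose libraries did not overlap, the 6 largest cardiomyocyte-high rises, the 5 largest differences between settings each way, and from each list its first 3 members and the 4 with the smallest p. LDHA was named by the rule for promoters, the 2 called members with the smallest p among those considered whose window held the motif. Not every called member was considered for that rule. Genes named outside these rules, after their values were seen, were CD163L1, MS4A4A, SEPP1, CD209, FCGR3B, SCARB1, CTSB, ITGAM, HK2, PGK1, PFKM, BNIP3, PFKFB3, PFKFB4, ENO1, IDUA, GPX1, ABCC3, ASNS, PSAT1, IL6, EGR2 and TTN. The fits were also run on simulated counts, in which far fewer genes changed than were called here. No 2 libraries of the Biowire CM+FB+MF group or of the Biowire FB+MF group agreed within sampling noise. The other groups were not checked for this. A few genes are not reported here.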

Additional observations from a re-analysis of the deposited data

Results flagged for a closer look

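The contrast between tissue with and without cardiomyocytes differed between the Biowire and digested settings by a test of the difference itself: 1905 genes were more positive and 2176 more negative in Biowires (edgeR quasi-likelihood interaction, adjusted p of 0.05). The largest positive differences among genes that are not cardiomyocyte-high, on the fitted log2 scale, were those of NPTX1 (12.76), DUSP8 (7.03), ADAM8 (6.6), ADAM28 (6.47) and IL21R (5.45). The largest negative ones were those of OR8A1 (-9.71), OR8G5 (-9.21), OR8B8 (-8.58), LOC101929532 (-8.05) and GSG1 (-7.66). Of these, only DUSP8 and ADAM28 were also tested in the separate fit of the digested controls. The rest were too low there, so the fitted values are no bounds. No group holds more than 3 libraries, so single libraries were not screened as outliers.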

How the results depend on the processing

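The number of calls in the Biowire comparison stayed within 1.5 times of 4949 with RLE size factors, without a filter, with DESeq2 (2597 higher, 2607 lower), in a fit of the compared groups only, after thinning to equal depth and without cardiomyocyte-high genes (2068 higher, 2497 lower). Calls of at least 1 on the log2 scale numbered 2033, of which 1123 were higher and 910 lower. Leaving out each replicate in turn gave 3910 to 4378 calls, 1784 to 2043 higher and 2051 to 2371 lower.

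The digested contrast gave 53 calls without a filter, all higher, and 19 to 72 when replicates were left out: 72 without digested CM+FB+MF replicate 2, 20 without digested FB+MF replicate 1 and 19 without digested FB+MF replicate 3. The difference between settings gave 3240 to 4087 calls with replicates left out.

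Without the most abundant gene, the mean summed levels of cardiomyocyte markers were 1656 CPM with cardiomyocytes and 392 CPM without (TTN left out), of fibroblast markers 352 and 399 CPM (SPARC left out), and of macrophage identity genes 8409 and 6962 CPM (CD68 left out), so the order of the groups turned for identity genes.

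Whether replicate numbers pair the samples was not settled. Deviations of same-numbered libraries correlated at 0.2067, 0.0632 and 0.0716, and those of differently numbered libraries at -0.1468 to 0.0877. A fit with the replicate block gave 2325 higher and 2678 lower calls. In that fit CCNA2, CXCL8 and ISG15 were not called (edgeR adjusted p 0.0544, 0.0501 and 0.0511) and MKI67 was (edgeR adjusted p 0.0412). Of 297 named genes tested, 253 were called, 22 lost and 12 gained their call in some alternative and none reversed. No scaling moved the median of all genes by more than 0.027. The lower depth of the CM+FB+MF libraries limits what can be seen of genes near 0 there.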

Other observations

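The olfactory receptor genes that fell lie side by side. Within 1 Mb of PANX3 on chromosome 11 (RefSeq order, GRCh38.p14) the table holds 10 olfactory receptor genes; 9 were tested and all 9 fell with cardiomyocytes, against 19.1% of all genes tested that fell. OR8D1 stood at 0.674, 1.87 and 0 CPM with cardiomyocytes and at 9.58, 19.1 and 24.4 CPM without, and OR8B4 at 0, 1.37 and 0 CPM against 7.08, 13.7 and 21.8 CPM. PANX3 itself, next in order, was at 0 against 6.68, 7.41 and 8.48 CPM. The locus also varied without cardiomyocytes. In Biowires of macrophages alone OR8D1 stood at 0.968, 17.5 and 27.7 CPM and OR8B4 at 1.09, 14.9 and 22.1 CPM. PANX3 stood there at 1.45, 8.12 and 10.1 CPM, so replicate 1 was lowest for each of them. No digested library held more than 0.463 CPM of OR8D1, 0.466 CPM of OR8B4 or 0.395 CPM of PANX3. TBRG1, the next gene in the table beyond PANX3, did not pass. It stood at 69.4, 83.7 and 76.6 CPM with cardiomyocytes and at 68.8, 81.0 and 76.8 CPM without. VWA5A, next to the receptor genes on the other side, fell from 319, 332 and 322 CPM to 98.7, 90.3 and 79.3 CPM. Of 12 genes tested in the span besides the receptors and PANX3, 3 fell, VWA5A among them, and none rose. The locus was singled out after its values were seen, the receptor genes share sequence, and whether the reads come from 1 transcript was not tested.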
